A study of Mus musculus with 10 samples.

Results

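NONMMUG018329.2 is a mouse gene of the NONCODE catalogue of long non-coding RNAs (lncRNAs), and its 14 listed transcripts are described here in sperm and in testes. They are 14 of 84289 transcripts and 1 of 69549 genes in the tables of 10 samples. All transcripts that the tables assign to this gene were taken, whatever their level. The gene itself was chosen by its share of the FPKM, the fragments scaled to transcript length and library size, which was the largest of any gene in most control sperm samples. Its level in control sperm is therefore a description and was not tested. The catalogue identifiers, the lengths and the values of the transcripts are given as the tables hold them, and genome positions and sequences were not analysed here.

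A lncRNA is an RNA made like a messenger RNA that does not code for a protein, and a gene of this kind often gives several transcripts, or isoforms, that differ in their ends and in the exons they keep. Mature sperm are almost silent in transcription, so most of the RNA they carry was made earlier, in the germ cells of the testis. Sperm hold far less RNA per cell than the cells of the testis.

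After removal of ribosomal RNA by RNase H, the RNA was sequenced with strand information from both ends of each fragment. All mice were C57BL/6 (C57BL/6J in the study's methods) and were 3 to 5 months old by the labels. The 4 control sperm and 2 control testes samples came from mice injected with saline, and the 2 cadmium sperm and 2 cadmium testes samples from mice injected once into the peritoneum with CdCl2 at 3 mg per kg body weight. All were killed at day 35. Sperm were taken from the vas deferens and the cauda epididymidis and treated with a lysis buffer for somatic cells, and each control sperm sample was a pool of mice. The names control sperm-1 to sperm-4 follow the sample labels. The labels number the samples of a group but do not say which mice they came from, so p-values measure the spread between these samples, which may be technical in part.

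The expected counts of a sample, which are estimates of the fragments per transcript, summed to between 366455 and 1058017 in control sperm, 1155491 and 1254477 in cadmium sperm, and 2606086 to 2866856 in testes. Of 7 spermatid and sperm markers, 6 were listed in at least 1 of the control sperm samples 2 to 4, with Odf1 at 0, and their summed level was 136 to 268 CPM (counts of every 1000000 in the library), against 224 to 286 CPM in testes. Control sperm-1 listed 3 of the 7, with a sum of 127 CPM. The protamine gene Prm1 was lower in all 6 sperm samples, at 0 to 14.1 CPM, than in the 4 testes samples, at 41.5 to 47.2 CPM, while Prm2 was at 134 to 256 CPM in control sperm samples 2 to 4, 106 CPM in control sperm-1, 207 to 232 CPM in cadmium sperm and 84.4 to 162 CPM in testes. None of the 4 markers of earlier germ cells (Kit, Stra8, Sycp1, Sycp3) was listed in control sperm. In cadmium sperm only Sycp3 was listed, at 0 to 3.46 CPM, against a sum of 5.62 to 10.7 CPM in testes. Of 3 Leydig cell markers, Cyp11a1 and Insl3 were at 0 in all sperm samples. Star ran from 0 in control sperm-1 to 109 CPM in control sperm-3, against 39.1 to 58.6 CPM in testes. The leukocyte markers Cd4 and Ptprc summed to at most 1.89 CPM in control sperm and 1.85 CPM in testes. They summed to 3.19 to 6.06 CPM in cadmium sperm. The sums of 4 epithelial markers were 0 to 13.6 CPM in sperm and 4.57 to 9.98 CPM in testes. Those of 3 Sertoli cell markers were 0 to 3.97 CPM and 0 to 3.16 CPM. Control sperm-1 was left out by the study for its low correlation with the other pools, so the control sperm group here holds the 3 kept pools, whose values are always given in the order of their numbers 2, 3 and 4.

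The 14 transcripts fell into 2 classes of length, with 8 long transcripts of 3505 to 3845 bp and 6 short ones of 239 to 923 bp. Among the 9963 genes with at least 2 listed transcripts, 5 listed more than this gene. Of the 140 values of the 14 transcripts in 10 samples, 79 were above 0, and 77 of these were not whole numbers. How fragments shared by several isoforms were divided among them is not given in the sources used here, so the values of isoforms of almost equal length are less certain than their sum. The study found sperm RNA enriched in small sizes, without the ribosomal RNA peaks seen in testes, and describes many sperm RNAs as fragmented. A short transcript with counts is therefore not shown to be an intact short RNA. Whether fragmentation bears on the isoform shares was not tested. A single transcript, NONMMUT029650.2 (239 bp), was listed in all 10 samples. There were 5 transcripts listed in sperm only and 0 in testes only. The shares of all transcripts listed in sperm only or in testes only are not given here. Sperm and testes also differ in the number of samples and in depth, so these counts are a description and not a trait shown for the gene.

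The testes samples carried almost all of the gene's counts on 1 long transcript, and the kept pools carried none on it. NONMMUT029639.2 (3505 bp), which had the largest mean share over the 10 samples at 42.8%, held 93.1% and 90.6% of the gene's counts in the control testes samples and 93.3% and 91.7% in those with cadmium. In the kept pools it was listed at 0, where 3 counts would have been a share of 0.00356%, 0.0126% and 0.00663% of the gene. Control sperm-1 had 0.01 expected counts of it among 10198 of the gene. Its level in control testes was 17528 and 13911 CPM. Set against 3 counts per sample in the control sperm pools, this is at least 2786-fold lower in sperm by the listed counts. This bound and those below cover counting only, not the division of shared fragments among isoforms. The long transcripts together averaged 26309 CPM in the kept pools and 16339 CPM in control testes.

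The next transcripts in mean share showed the opposite order. NONMMUT029636.2 (3845 bp) held 31.8%, 35.0% and 34.6% of the gene's counts in the kept pools and was listed at 0 in all 4 testes samples. Its level was 25324, 22784 and 30818 CPM in these pools. Against 3 counts per control testes sample, this is at least 23943-fold higher in sperm by the listed counts. NONMMUT102084.1 (923 bp) held 45.2%, 42.0% and 39.9% in the same pools, the largest share of any transcript in each of them, against 0.0496% and 0.000625% in control testes and 0 in cadmium testes. The groups of these transcripts did not overlap.

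**Figure D1:**
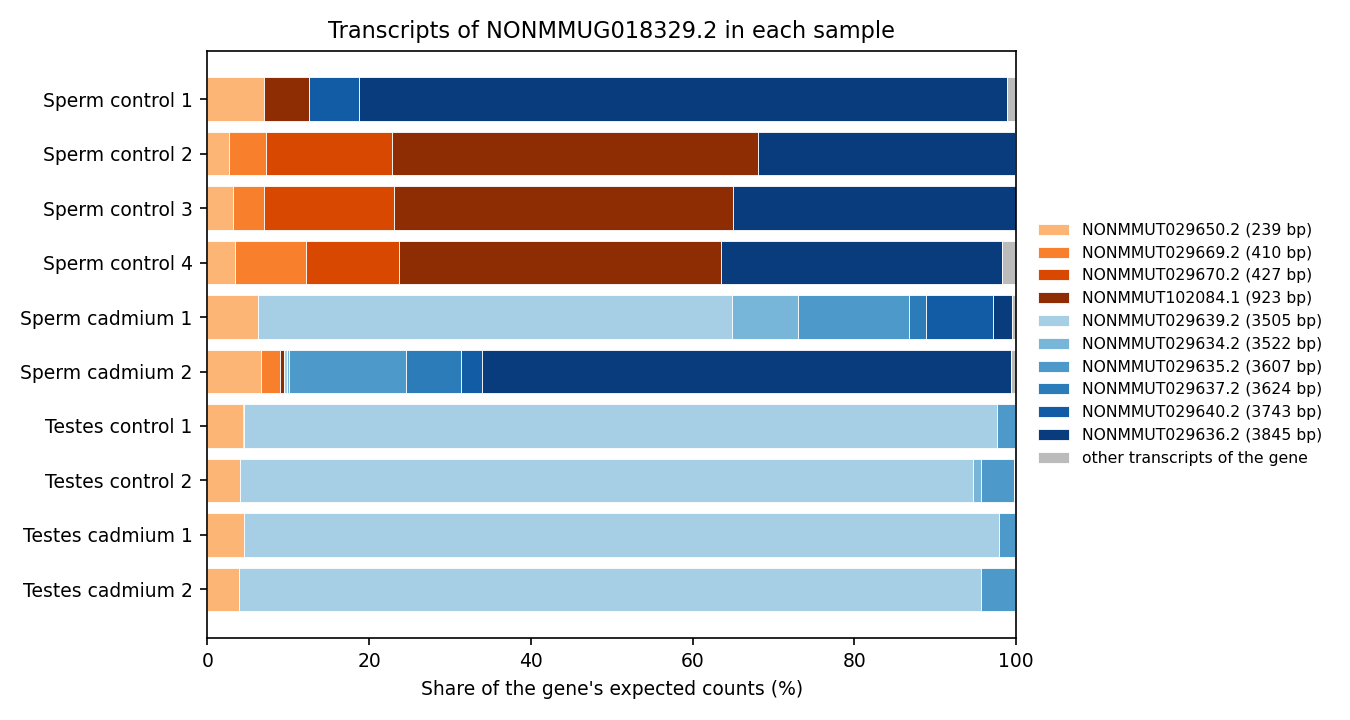
Share of the expected counts of NONMMUG018329.2 on each transcript (horizontal axis, in %) in each of the 10 samples, with short transcripts in orange and long ones in blue. The 4 testes samples are filled by the 3505-bp transcript, control sperm 2, 3 and 4 by the 3845-bp and the 923-bp transcripts with the 427-bp one, and control sperm 1 by the 3845-bp transcript at 80.1%.

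The smaller short transcripts followed the 923-bp one. NONMMUT029670.2 (427 bp) held 15.6%, 16.1% and 11.5% of the gene's counts in the kept pools, and NONMMUT029669.2 (410 bp) held 4.54%, 3.79% and 8.85%. Both were listed at 0 in the 4 testes samples and in control sperm-1. NONMMUT029668.2 (430 bp) was at 0.0849% in control sperm-2, at 0 in sperm-3 and at 1.75% in sperm-4, and was at 0 in every other sample. The transcripts of 923, 427, 410 and 430 bp together held 65.5%, 61.9% and 61.9% of the gene's counts in these pools, 5.61% in control sperm-1, 0 and 2.89% in cadmium sperm and at most 0.0496% in testes.

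In its share of the gene's counts, the 239-bp transcript NONMMUT029650.2 did not follow them. It held 2.70%, 3.15% and 3.38% in the kept pools, 4.44% and 4.04% in testes without and 4.58% and 3.90% in testes with cadmium, and 6.23% and 6.59% in cadmium sperm. Control sperm-1 had the highest share, 7.02%. By level, the 239-bp transcript was higher in sperm, at 1442 to 3009 CPM in the 6 sperm samples and 620 to 1137 CPM in the 4 testes samples, with no overlap. NONMMUT029647.2 (431 bp) stayed at or under 0.256% in every sample. The short transcripts were therefore not a uniform class, since the smallest of them was listed everywhere.

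Among the other long transcripts, NONMMUT029635.2 (3607 bp) held 2.32% and 4.05% in the control testes samples and 2.02% and 4.20% in those with cadmium. It held 13.8% and 14.5% in the cadmium sperm samples, and it was at 0 in the kept pools. NONMMUT029640.2 (3743 bp) was listed in control sperm-1 at 6.09% and in cadmium sperm at 8.34% and 2.52%, and in no other sample. NONMMUT029634.2 (3522 bp) reached 8.12% in cadmium sperm-1 and 1.05% in control testes-2, and NONMMUT029637.2 (3624 bp) reached 2.03% and 6.84% in cadmium sperm. The remaining long transcripts, NONMMUT029638.2 (3627 bp) and NONMMUT029641.2 (3525 bp), were at or under 0.864% in every sample. Of the 8 long transcripts, only that of 3845 bp was listed in the kept pools.

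On the scale per length, the short transcripts weighed more. In the kept pools the FPKM of the 923-bp transcript was 40549, 31292 and 40119, that of the 427-bp transcript 32087, 27942 and 26448, and that of the 3845-bp transcript 6614, 5982 and 8056. In control testes, the FPKM of the 3505-bp transcript was 5043 and 4008 and that of the 239-bp transcript 4356 and 3291. Per length, the 239-bp and the 3505-bp transcripts thus lay near each other in testes, and the 923-bp transcript lay above the 3845-bp one in each of these sperm pools. In control sperm-1 the 239-bp transcript led on this scale, at 55.0% of the gene's FPKM, and in cadmium sperm it led at 53.8% and 51.5%.

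The usage of the transcripts was compared between control sperm and control testes with edgeR's test for differential splicing, in which each transcript is set against the change of the gene as a whole. Of the 14 transcripts, 9 passed the filter on low values, and 7 of these had a Benjamini-Hochberg adjusted p under 0.05, where 1.11% of all 3875 transcripts tested did. The transcripts of 3505 bp (adjusted p = 8.67e-06) and 3607 bp (adjusted p = 0.000762) were lower in sperm relative to the gene. Those of 3845 bp (adjusted p = 0.000364), 427 bp (adjusted p = 0.000608), 923 bp (adjusted p = 0.000879), 410 bp (adjusted p = 0.000879) and 430 bp (adjusted p = 0.0156) were higher in sperm. The 239-bp and 431-bp transcripts did not pass the test (adjusted p = 1.00 and 0.703). With control testes-1 or control testes-2 left out, which leaves 1 testes sample that is assumed to vary like the sperm pools, 0 of the 7 transcripts then tested passed. Transcripts at 0 in all samples of 1 tissue passed the filter only through the other, and the isoform use of the gene was known when it was chosen, so these p-values are not independent evidence of its pattern.

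The share of the 3505-bp transcript was 91.8% ± 1.78 in control testes (SD, n = 2) and 0 in the 3 control sperm pools. The two-sided exact permutation test over samples had p = 0.2, which is the smallest p that 3 against 2 samples allow. Over all 10 samples sperm averaged 9.84% ± 23.9 (SD, n = 6) and testes 92.2% ± 1.27 (SD, n = 4). The transcript was picked by its mean share over these samples, so these values are a description. The 6 sperm samples lay at 58.6% or below and the 4 testes samples at 90.6% or above.

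A distance between samples was taken as the part of the gene's counts, in %, that would have to move to another transcript to make the shares of the samples equal. It was 0.359 to 3.27% among the 4 testes samples and 4.08 to 9.48% among the kept pools. Between these pools and the testes samples it was 96.5 to 97.3%. The distance between control sperm and testes was thus larger than that between the kept pools or between the testes samples. Distances within sperm as a whole, over both treatments, all stayed below 96.5%, but the largest came close to it. The kept pools were at least 94.3% from cadmium sperm-1, from which they also differ in treatment. The cadmium sperm samples were 72.3% from each other.

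For comparison, 187 genes had at least 2 transcripts and at least 50 counts in each of the 5 control samples compared. Of these, 22 (11.8%) had another leading transcript in control sperm than in control testes. The distance between the tissue means was 96.9% for NONMMUG018329.2 and 3.91% in the median gene, and 1 other gene had a distance as large or larger. These genes are not replicates of each other, and the order among them is a description.

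The mean length of the transcripts, weighted by counts, was lower in control sperm. It was 1734, 1824 and 1801 bp in the kept pools and 3358 and 3373 bp in control testes, with no overlap. Sperm averaged 1786 ± 47.1 bp (SD, n = 3) and testes 3366 ± 10.2 bp (SD, n = 2), and the same exact permutation test had p = 0.2, the smallest p this design allows. Control sperm-1, at 3411 bp, lay with the testes samples, and so did cadmium sperm, at 3344 and 3450 bp. This held for counts only. With FPKM as weights, control sperm-1 was at 1543 bp and cadmium sperm at 1754 and 1577 bp. The 4 testes samples were then at 1977 to 2093 bp. All these are lengths of the listed transcripts, not of RNA molecules, which the study found to be smaller in sperm.

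**Figure D2:**
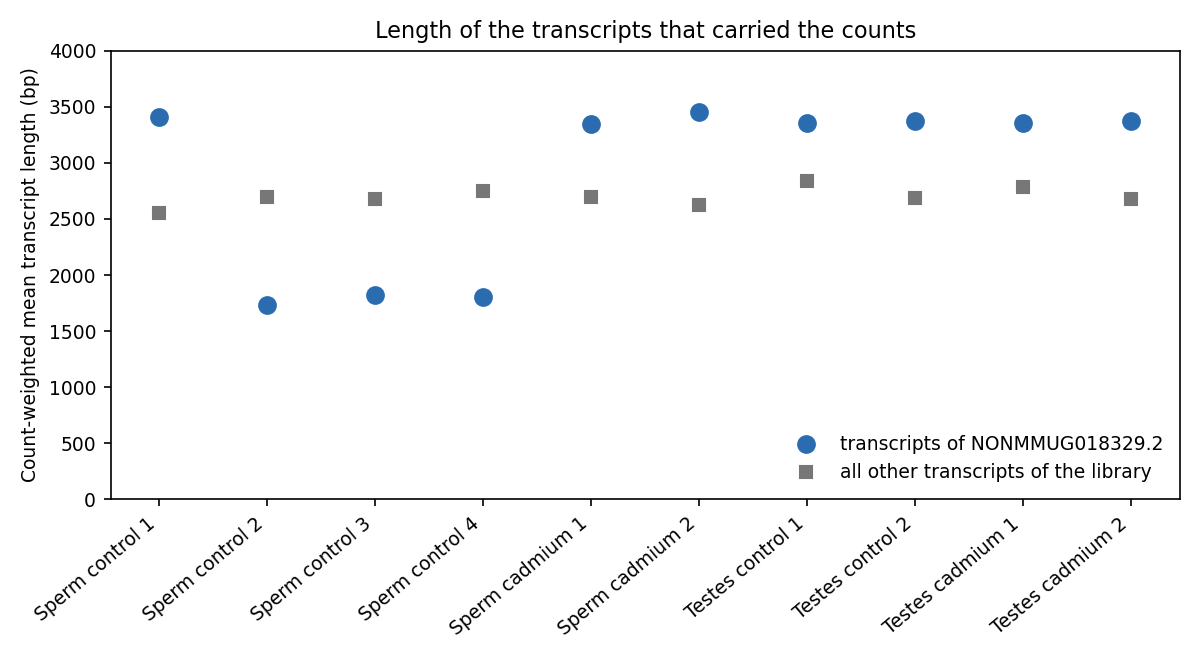
Mean transcript length weighted by expected counts (vertical axis, in bp) for NONMMUG018329.2 (circles) and for all other transcripts of the same sample (squares), 1 point per sample. The gene lies between 1734 and 1824 bp in control sperm 2, 3 and 4 and between 3344 and 3450 bp in the other 7 samples, while the rest of the library lies between 2554 and 2838 bp in all 10.

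The rest of the library did not shorten with it. All other transcripts had a mean length of 2710 ± 39.6 bp in control sperm (SD, n = 3) and 2762 ± 108 bp in control testes (SD, n = 2), with overlap. Of the 187 genes above, 91 (48.7%) had a lower mean length in sperm, and 0 other genes fell by as much as NONMMUG018329.2 did. Over both treatments, the mean length of the gene averaged 2594 ± 886 bp over the 6 sperm samples and 3366 ± 10.7 bp over the 4 testes samples (SD), with p = 0.295 in the exact permutation test. With counts as weights, the difference in length was therefore not shown for sperm of both treatments. With FPKM as weights, the mean length was 811 to 1754 bp in the 6 sperm samples. It was 1977 to 2093 bp in the 4 testes samples, with no overlap, and this was not tested over both treatments.

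The gene held a large part of every library. Its share of all expected counts was 7.95%, 6.51% and 8.90% in the kept pools and 2.40% in control sperm-1. Cadmium sperm had 4.02% and 2.19%, control testes 1.88% and 1.54%, and cadmium testes 2.48% and 2.88%. The 95% Wilson intervals of these shares, which cover counting error only, ran from 8.82 to 8.98% in the pool with the highest share.

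By group the share ran from 7.79% ± 1.20 in control sperm (SD, n = 3) through 3.11% ± 1.30 in cadmium sperm (SD, n = 2) and 2.68% ± 0.280 in cadmium testes (SD, n = 2) to 1.71% ± 0.245 in control testes (SD, n = 2). Cadmium sperm and cadmium testes, neighbours in this order, overlapped. The other neighbours did not. In bulk samples, fewer cells of a type and less RNA per cell cannot be told apart, and a share of a library also moves with all other RNAs in it.

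Ranked by summed FPKM, the gene was the highest of all genes in the kept pools and in cadmium sperm-1. It was at rank 4 in control sperm-1 and at rank 2 in cadmium sperm-2. It was also at rank 2 or 3 in the 4 testes samples, so it was among the highest genes of the testis as well. Ranked by counts, it was at rank 1 in the kept pools, in cadmium sperm-1 and in all 4 testes samples, at rank 3 in cadmium sperm-2 and at rank 4 in control sperm-1.

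The long transcripts summed to 25324, 22784 and 30818 CPM in the kept pools, to 20923 CPM in control sperm-1, and to 37689 and 19775 CPM in cadmium sperm. In testes they summed to 17965 and 14712 CPM in the control and 23667 and 27614 CPM in the cadmium samples. Over the 10 samples the long sum thus ran from 14712 to 37689 CPM, and the ranges of the 6 sperm and the 4 testes samples overlapped. Within the controls they did not, with means of 26309 ± 4106 CPM in the kept pools (SD, n = 3) and 16339 ± 2300 CPM in testes (SD, n = 2).

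The short transcripts differed more. They summed to 54219, 42352 and 58154 CPM in the kept pools. They summed to 3094 CPM in control sperm-1, 2552 and 2108 CPM in cadmium sperm, and 643 to 1168 CPM in the 4 testes samples. The kept pools lay above all 7 other samples, and the other sperm samples lay above all testes samples. The division into long and short was made after the values were seen and was not tested.

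**Figure D3:**
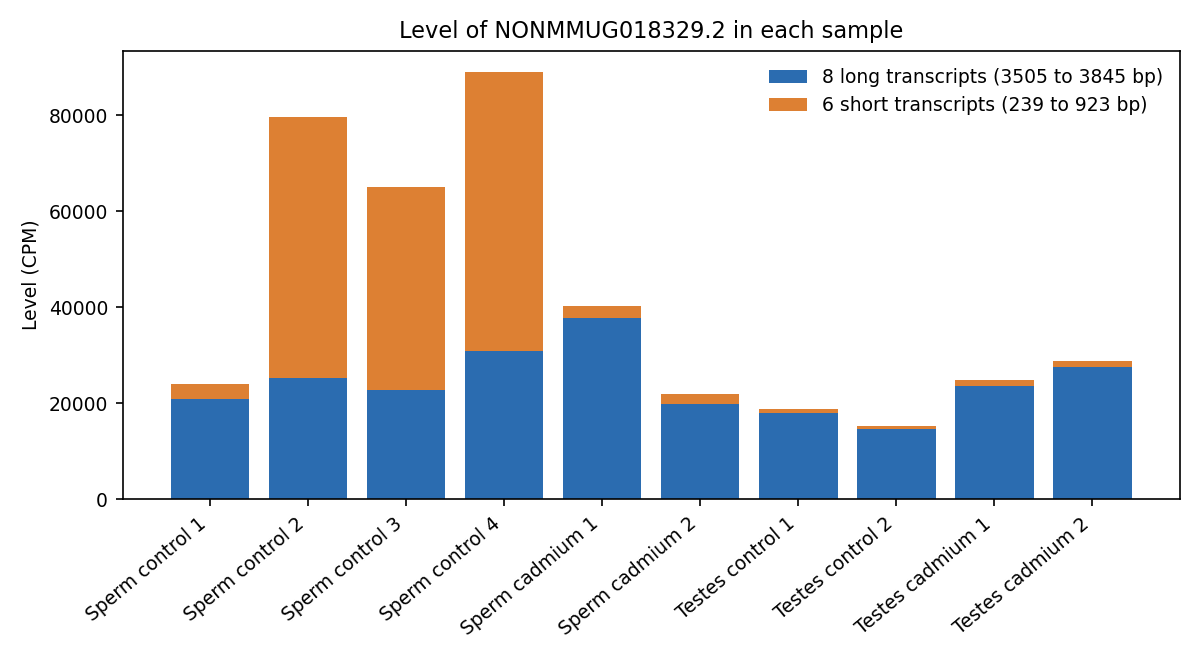
Level of NONMMUG018329.2 (vertical axis, CPM) in each of the 10 samples, split into its 8 long transcripts (blue) and its 6 short ones (orange), 1 bar per sample. The blue parts run from 14712 to 37689 CPM, and the orange parts are at least 42352 CPM in control sperm 2, 3 and 4 and at most 3094 CPM elsewhere.

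Cadmium was compared with control in testes first, where no value had been used to choose the gene. The gene's level was 18827 and 15356 CPM without and 24822 and 28782 CPM with cadmium, and both cadmium samples lay above both control samples. The log2 fold change was 0.75 with a standard error of 0.75, worked back from the test, and a Benjamini-Hochberg adjusted p of 1.00 over 26721 genes (quasi-likelihood test of edgeR). The share of genes that passed the test at more than 2-fold was 0.015%.

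For the isoforms of the gene in testes, the calls with cadmium depended on the filter on low values. Of the 4 transcripts of 14 that passed the filter (239, 431, 3505 and 3607 bp), 0 passed edgeR's quasi-likelihood test and 0 had an unadjusted p under 0.05. Without the filter, 3 of 9 were called, and the share of all transcripts called in that fit is not given here. Among all 28423 transcripts that passed the filter, 0 (0%) passed the test and 1.21% had an unadjusted p under 0.05. In the test of usage, 0 of 4 transcripts passed, 0 of all 4364 tested (0%), and 3.02% of all had an unadjusted p under 0.05. The share of the 3505-bp transcript was 91.8% ± 1.78 in control and 92.5% ± 1.12 in cadmium testes (SD, n = 2 each).

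In sperm the gene's level was 79543, 65136 and 88971 CPM in the kept pools and 40241 and 21882 CPM in cadmium sperm, with no overlap. Control sperm-1, at 24018 CPM, lay between the cadmium samples. The log2 fold change without sperm-1 was -1.31 with a standard error of 0.50, and the adjusted p was 0.554 by edgeR, where 0.0678% of 20637 genes passed. The median log2 change over all genes tested was 0.43 with edgeR's TMM scaling. The values of the kept pools chose the gene, so this value is a description.

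The difference between the cadmium effects in sperm and in testes was -2.13 on the log2 scale (standard error 0.37), with an adjusted p of 7.47e-05 by edgeR in 1 model of 9 samples. That error was below those of the effects fitted alone, 0.75 in testes and 0.50 in sperm. The spread behind it was estimated with all genes and groups, so it is not that of this gene alone. Of 32811 genes, 0.0396% passed this test. The call was lost with DESeq2 (adjusted p = 1.00), with limma on log2(FPKM + 1) (adjusted p = 0.156) and when any of the kept pools, cadmium sperm-2 or cadmium testes-2 was left out. The control sperm samples that chose the gene take part in it.

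The cadmium sperm samples held few counts on the short transcripts that filled the gene in the kept pools. The 923-bp transcript was at 35948, 27327 and 35483 CPM in these pools, at 0 and 114 CPM in cadmium sperm and at 1348 CPM in control sperm-1. The 427-bp transcript was at 12438, 10499 and 10203 CPM in the control pools and at 0 and 4.39 CPM in cadmium sperm. The groups did not overlap, but control sperm-1 held 0 of the 427-bp transcript as well.

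The long transcripts of the cadmium sperm samples differed from each other. Cadmium sperm-1 held 58.6% of the gene's counts on the 3505-bp transcript of the testes and 2.30% on the 3845-bp transcript. Cadmium sperm-2 held 0.420% on the former and 65.5% on the latter. The distance between both was 72.3%, and that of cadmium sperm-1 to the testes samples was 32.0 to 34.7%. Cadmium sperm-2 lay nearer to control sperm-1, at 24.3%, than to the other control pools, at 59.0 to 62.6%.

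Of the 14 transcripts 13 were high enough to be tested singly, and 10 of them passed edgeR's quasi-likelihood test between cadmium and control sperm, where 0.224% of all 21865 transcripts did. Of these, 6 long transcripts (3505, 3522, 3607, 3624, 3627 and 3743 bp) were higher and 4 short ones (410, 427, 430 and 923 bp) lower in cadmium sperm, where 0.0823% of all transcripts were called higher and 0.142% lower. The 3845-bp transcript (log2 fold change -1.65, standard error 0.44, adjusted p = 0.0852) and those of 239 and 431 bp did not pass. This fit gave every transcript the spread shared by all transcripts, and the spread of the 3505-bp transcript between the samples was 75.1 times the shared one. A robust estimate, chosen after seeing the data, loosens this only for transcripts of outlying spread. With it, 4 of the 13 passed, the long transcripts of 3607, 3624, 3627 and 3743 bp. The spread of the 3743-bp transcript between the samples was 8.66 times the shared one. Its p by the same test was 3.82e-53 in the first fit and 1.26e-69 in the robust one. The p of the 3607-bp and 3624-bp transcripts also fell. Passing the robust fit thus does not show that a transcript's own spread was used. The 0.224% above belongs to the first fit, and the share of all transcripts that passed the robust fit is not given here. Several of the 13 passed the filter only through 1 group, and the sperm pools that chose the gene are part of the comparison, so the count is a description.

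The transcripts that passed in both fits were all at 0 in the kept pools. The bounds given for them cover counting only, not the division of shared fragments among isoforms. The 3607-bp transcript was at 5552 and 3171 CPM in the cadmium samples, which against 3 counts per control pool is at least 773-fold higher, and the 3624-bp transcript at 818 and 1496 CPM, at least 205-fold higher. The 3743-bp transcript was at 3356 and 551 CPM, at least 346-fold higher by the same measure, but control sperm-1 held 1463 CPM of it. The 3627-bp transcript was at 36.9 and 93.3 CPM, and control sperm-1 held more of it, 208 CPM. The transcripts of 3607 and 3624 bp were at 0.518 and 0 CPM in control sperm-1, less than 1 count each. In the test of usage, 1 of 13 transcripts passed, that of 3505 bp (adjusted p = 0.031), where 0.0311% of 3218 transcripts did, and it no longer passed with any 1 sample left out or with control sperm-1 added.

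In its share of long transcripts, control sperm-1 lay nearer to cadmium sperm than to the kept pools. It held 87.1% of the gene's counts on long transcripts, against 31.8%, 35.0% and 34.6% in the kept pools, 93.7% and 90.4% in cadmium sperm, and 95.3 to 95.9% in testes. Transcript by transcript its distance was 56.3 to 59.8% to the kept pools, 85.1% to cadmium sperm-1, 24.3% to cadmium sperm-2 and 95.3 to 95.9% to the testes samples, so the likeness held for cadmium sperm-2 alone. Its leading transcript by counts was that of 3845 bp, the long transcript that the other control pools also used.

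The gene bore on the correlation by which control sperm-1 was set apart. Across all 84289 transcripts on linear FPKM, Pearson's r of sperm-1 with the kept pools was 0.628 ± 0.0667 (SD, n = 3 pairs), and 0 of 3 pairs reached 0.85. Among the kept pools it was 0.890 ± 0.0351 (SD, n = 3 pairs), with 3 of 3 pairs at or above 0.85. Transcripts are not independent replicates and pairs share samples, so these coefficients are descriptions.

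Without the 14 transcripts of the gene, sperm-1 gave 0.908, 0.884 and 0.871 with the kept pools, and 3 of 3 pairs were above 0.85. Among the other pools r was then 0.722 and 0.771 for sperm-2 with sperm-3 and sperm-4, and 0.936 for the remaining pair. The order of the pools thus turned when 14 of 84289 transcripts were left out. Between cadmium sperm and the kept pools, the mean r was 0.546 ± 0.0931 with the gene and 0.789 ± 0.126 without it (SD, n = 6 pairs).

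The gene moved the coefficients on the linear scale only. On log10(FPKM + 1), sperm-1 gave a mean of 0.658 with the other pools, both with and without the gene, and the kept pools gave 0.689 among themselves, with 0 of 3 pairs at 0.85. With FPKM summed per gene, an alternative chosen after seeing the data, sperm-1 gave 0.607 and the other pools 0.931 among themselves, so merging the isoforms did not remove the gap on the linear scale.

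**Figure D4:**
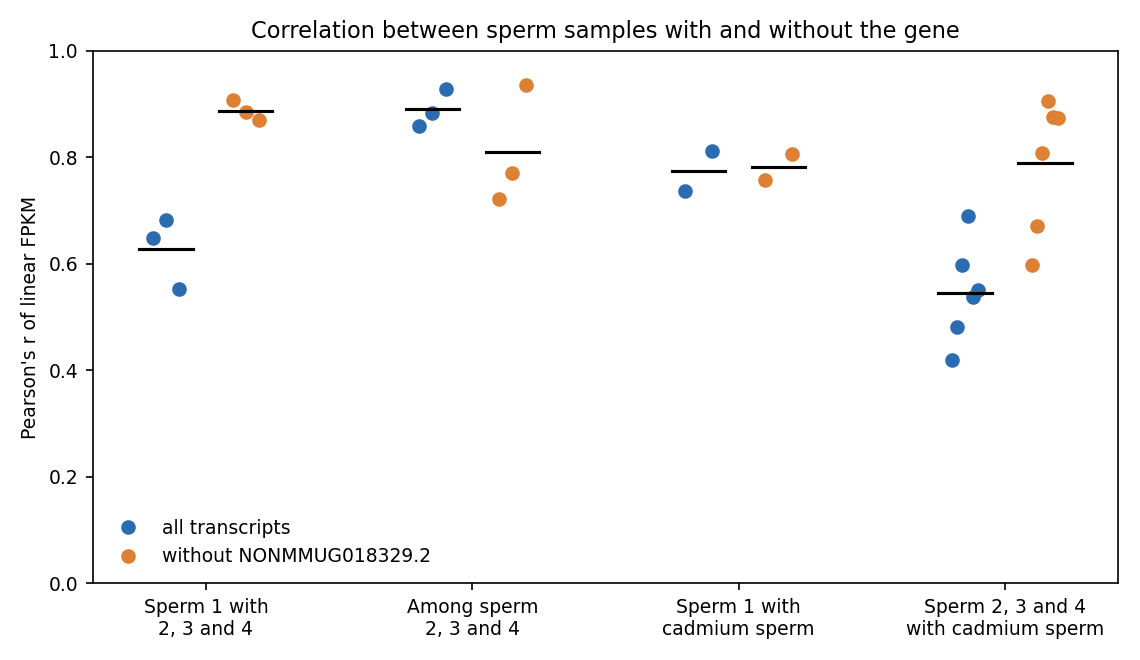
Pearson's r of linear FPKM (vertical axis) between pairs of sperm samples over all transcripts (blue) and without the transcripts of NONMMUG018329.2 (orange), with 1 point per pair and black lines at the means. Control sperm 1 rises from a mean of 0.628 to 0.888 with the other control pools when the gene is left out, and the pairs among these pools fall from 0.890 to 0.810.

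The noncoding gene next in rank by counts in control sperm was LXLOC_042885, a predicted gene of the authors' assembly with 1 listed transcript. It was at 59437, 55202 and 66484 CPM in the kept pools, at 25741 CPM in control sperm-1, at 13090 and 18894 CPM in cadmium sperm and at 325 to 1285 CPM in testes. All 6 sperm samples lay above all 4 testes samples, which was not so for NONMMUG018329.2, where cadmium sperm-2 and control sperm-1 lay below both cadmium testes samples.

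The 5 genes whose log2(CPM + 1) followed that of NONMMUG018329.2 most closely over the 10 samples, among 4978 genes of at least 20 CPM on average, had Pearson's r from 0.833 to 0.904. They were NONMMUG033322.2 (0.904), NONMMUG006798.2 (0.883), Ctcfl (0.878), NONMMUG064052.1 (0.859) and NONMMUG014784.2 (0.833). Ctcfl, which codes for a paralogue of the chromatin protein CTCF found in the male germ line, was at 65.3, 56.2 and 71.3 CPM in the kept pools, at 36.9 CPM in control sperm-1 and at 23.2 to 46.3 CPM in the other 6 samples. The level of NONMMUG033322.2 was 154, 71.0 and 115 CPM in these pools, 20.2 CPM in control sperm-1 and 8.33 to 39.5 CPM in the other 6 samples. Both were highest in the kept pools. The 10 samples fall into groups of tissue and treatment and differ in depth, so these coefficients describe shared levels across groups.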

How the data were processed

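The authors removed adaptors and low-quality reads, aligned the rest with SOAPaligner/SOAP2 by their methods, and deposited an expected count and an FPKM per transcript and sample. The submitters' processing notes name HISAT and mm10, and the tool behind the expected counts is not given in the sources used here. The expected counts that the authors deposited were not normalized, and their FPKM, as deposited, are relative to transcript length and library size. A transcript that a sample does not list was taken as 0. Gene symbols that a spreadsheet had turned into dates were restored for 39 transcripts. Python 3.11.15 gave the shares, lengths, correlations and exact permutation tests (pandas 2.3.3, numpy 2.4.6, scipy 1.17.1) and the figures (matplotlib 3.10.9).

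Gene sums and transcripts were rounded and tested over all features that reached 1 FPKM in 2 samples or more with edgeR 4.0.16 in R 4.3.3 (quasi-likelihood test, TMM, diffSpliceDGE for usage), at an adjusted p under 0.05 and, for levels, a change of more than 2-fold. The gene-level cadmium tests within each tissue and the usage tests were checked on counts simulated with the same spread for every feature. The test of the difference between the cadmium effects and the tests of single transcripts were not checked in this way. DESeq2 1.42.0, limma 3.58.1 with pseudocounts of 1 and 0.1, other scalings and filters and samples left out were alternatives. The smallest count read as present in a bound was 3. Transcripts of a mean share of at least 5% or called in a test, the next noncoding gene and the 5 most similar genes were named. The gene, its transcripts, the lists and the tests were chosen with earlier results of these data known.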

Additional observations from a re-analysis of the deposited data

Results flagged for a closer look

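Among the 4 control sperm samples, the sample farthest out lay beyond Dixon's 95% limit for 7 of the 11 measures of the gene that were checked, and chance alone flags about 1 in 20 such groups. For 6 of them the far sample was control sperm-1. It held 80.1% of the gene's counts on the 3845-bp transcript, 6.09% on the 3743-bp transcript, 7.02% on the 239-bp transcript and 5.61% on the 923-bp transcript, with 87.1% on long transcripts in all and a mean length of 3411 bp. These shares are parts of the same whole, so the flags are not independent of each other. The 7th was control sperm-4, with 1.75% on the 430-bp transcript NONMMUT029668.2. Control sperm-1 also listed 3 of 7 sperm and spermatid markers, where the other pools together listed 6, and its total of 424606 counts lay between those of sperm-3 and sperm-4. Whether these bear on its isoform use was not tested.

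The cadmium effect on the gene's level differed between sperm and testes by -2.13 on the log2 scale in edgeR's test of the difference (standard error 0.37, adjusted p = 7.47e-05). The gene was chosen for its level in control sperm, which enters this difference, and the call was lost under 8 of the 16 alternatives tried.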

How the results depend on the processing

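The gene-level cadmium effect in testes had an adjusted p under 0.05 only with a replicate block (log2 0.72, adjusted p = 2.46e-08 by edgeR). That change is under the 2-fold needed for a call. By adjusted p alone, 10 of 11 alternatives gave the same result. Deviations of same-numbered samples correlated with r = 0.538 in testes and -0.038 in sperm, and the numbers are not stated to pair samples. In sperm the effect passed with a robust spread (-1.31, adjusted p = 0.00957), without the filter (-1.31, 9.92e-20) and with limma on log2(FPKM + 0.1) (-2.44, 0.0257). The difference between both effects was called in 8 of 16 alternatives. It was -2.11 with DESeq2 (adjusted p = 1.00) and -3.09 with limma at both pseudocounts (adjusted p = 0.156 and 0.0527), and leaving out 1 sample gave -2.42 to -1.44 (adjusted p = 1.73e-07 to 1.00).

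Without the filter, 3 of 9 transcripts were called for cadmium in testes. The share of all transcripts called is not given here for this or the other alternative fits. For cadmium in sperm, 4 were called with a robust spread, 6 with RLE size factors and 4 to 9 with 1 sample left out. Usage calls between control sperm and testes numbered 0 to 7 with 1 sample left out, and usage calls for cadmium in sperm 0 without the filter, with sperm-1 added or with any sample left out. The share of the 3505-bp transcript differed by -82.3 points over both treatments (exact permutation p = 0.00952, the smallest it can give, for a transcript picked on these samples). The gene's share was 13.7% of FPKM in control sperm and 1.23% in control testes, and 6.44% of counts with sperm-1 added. The mean r of sperm-1 was 0.888 without the gene. No value reversed. The causes were not tested. Depth was 366455 to 2866856 counts, so isoforms of a few counts may be missed in sperm.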
